A study of Rattus norvegicus with 12 samples.

Results

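The comparison of rat midbrain astrocytes after 3 h of PT109B with untreated control covered 6 of the 12 RNA-seq libraries of the series, 3 treated and 3 control. All genes of the deposited table were taken, without choosing any by their values. Of 9721 genes, 9491 passed the filter on low counts and were tested. The cells were primary astrocytes from the midbrain of newborn SD rats of wild-type genotype, grown in DMEM with fetal bovine serum in both groups. The 3 h group received 10 µM PT109B, a compound known here by its code name, for 3 h. The control group is labelled as control, the protocol lists 0 h among its times, and the labels name no vehicle, so the compound cannot be told apart from what else passed in 3 h of handling. The series belongs to work on this compound and the turning of astrocytes into dopaminergic neurons, and the comparison asks which transcripts differed after 3 h. Whether replicates were grown as separate cultures is not stated. Each p-value therefore sets the difference between 3 h and control against the scatter between replicate libraries of the series, which may be technical scatter.

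Astrocytes are glial cells that clear glutamate, buffer potassium and supply neurons with metabolites, and they answer growth factors, cytokines and stress with rapid waves of transcription. Such a wave begins with immediate early genes, which encode transcription factors and need no new protein to be switched on. Signalling inhibitors, secreted ligands and metabolic genes follow over the next hours, and genes of cell division or of cell identity can change with them.

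Values are given as CPM, counts scaled to a common library size with TMM factors, always in the order of replicates 1, 2 and 3. Changes are log2 fold changes of 3 h over control ± SE from edgeR's quasi-likelihood test, and a gene was called changed at a Benjamini-Hochberg adjusted p below 0.05 over all tested genes. Values with ± in brackets are these log2 changes, and a range given where a call was lost covers the log2 changes over the 6 fits that each left out 1 library. Total counts were 10364603 to 12498050 per library. The 3 h libraries did not form a uniform group. Across genes, 3 h replicates 1 and 2 correlated with each other at r = 0.9866 and with the controls at 0.8966 to 0.9067. For 3 h replicate 3, r was 0.9332 with each of those 2 libraries and 0.9503 to 0.955 with the controls, while controls correlated at 0.9822 to 0.9897 among themselves. The TMM factors used for scaling were 0.83, 0.8485 and 1.014 in the 3 h libraries and 1.12, 1.121 and 1.096 in controls. The 10 most abundant genes of a library held 9.47, 9.4 and 9.14% of counts at 3 h and 8.22, 7.89 and 7.29% in controls. Replicates 1 and 2 are called the pair below, and each finding is given with the position of replicate 3.

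Markers of the labelled cell type were abundant in every library. The 18 tested astrocyte genes summed to 16405 to 18059 CPM at 3 h and 14064 to 17314 CPM in controls. Their most abundant member was Vim, with 6004, 6067 and 3829 CPM at 3 h, against 4472, 4560 and 3363 CPM in controls. Gfap, the intermediate filament protein of astrocytes, had 1340, 1526 and 2450 CPM at 3 h, against 1932, 1900 and 2708 CPM in controls, and the water channel Aqp4 had 885, 1016 and 1609 CPM at 3 h, against 1320, 1179 and 2131 CPM in controls. Neither was called changed (-0.30 ± 0.27 and -0.40 ± 0.32), and for both the pair lay below replicate 3. Markers of other cells were also present. Microglia markers (25 tested) summed to 2984, 2966 and 3733 CPM at 3 h, against 3203, 3280 and 3940 CPM in controls. Fibroblast and meningeal markers (15 tested) summed to 2498, 2557 and 1637 CPM at 3 h, against 1600, 2022 and 1599 CPM in controls. Their part in the results below was not tested, and in such bulk samples fewer cells of a type and less RNA per cell cannot be told apart.

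In all, 2035 genes (21.4%) were called at 3 h, 1281 higher (13.5% of tested genes) and 754 lower (7.94%). Of these, 572 were higher and 198 lower by 2-fold or more, and the median log2 change of all tested genes was -0.03. The split depended on scaling: with library size alone 650 genes were higher (6.85%) and 1887 lower (19.9%), and with depth taken from counts and FPKM 677 were higher (7.13%) and 1718 lower (18.1%), where the median of all genes was -0.34 and -0.31. Upper quartile scaling gave 1106 higher and 925 lower at a median of -0.10. Genes called under all 4 other scalings as well numbered 649 higher and 722 lower. Of the called genes named below, Fos, Wnt5a, Nfkb2, Tap1, Aars1, Gars, Rars1, Fth1, Akr1b8, En2, Dlg4, Ntrk2, Itga5, Apold1, Slc4a10 and Flt1 lost their call under at least 1 of these scalings. Without 3 h replicate 3 the count was 3635 (38.3%), and without any other single library it was 863 to 1016 (953 and 878 without 3 h replicates 1 and 2, and 863, 916 and 1016 without control replicates 1, 2 and 3). In all 6 of these fits, 529 genes were called higher and 208 lower.

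The 2070 genes called higher (21.8%) and 1565 called lower (16.5%) when 3 h replicate 3 was left out show where that library stood. Its level was above all 3 controls for 1543 of the 2070 higher genes (74.5%, against 36.0% of all tested genes). It was below all controls for 1153 of the 1565 lower genes (73.7%, against 35.9% of all tested genes). In size it moved less. For the higher genes the median log2 shift from the control mean was 0.32 in replicate 3 and 0.89 in the pair, and for the lower genes it was -0.41 in replicate 3 and -0.97 in the pair. Replicate 3 was both beyond the controls on the pair's side and at 50% or more of the pair's shift for 841 of the higher and 609 of the lower genes. It lay within the controls for 362 higher and 319 lower genes, and beyond them on the opposite side for 165 and 93. Of the genes called with all libraries it was on the pair's side of the controls for 1248 of 1281 higher and 753 of 754 lower genes, a share that the test itself favours because replicate 3 is in it. All of these shifts share the same 3 controls. The 3 treated libraries did not overlap the controls for 23.5% of all tested genes on the higher side and 24.1% on the lower. Of called genes, 1247 of 1281 higher and 753 of 754 lower had no overlap, so this adds little to a call. Counts in the lists below stand beside 13.5% higher and 7.94% lower for all tested genes (21.8% and 16.5% without replicate 3).

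**Figure D1:**
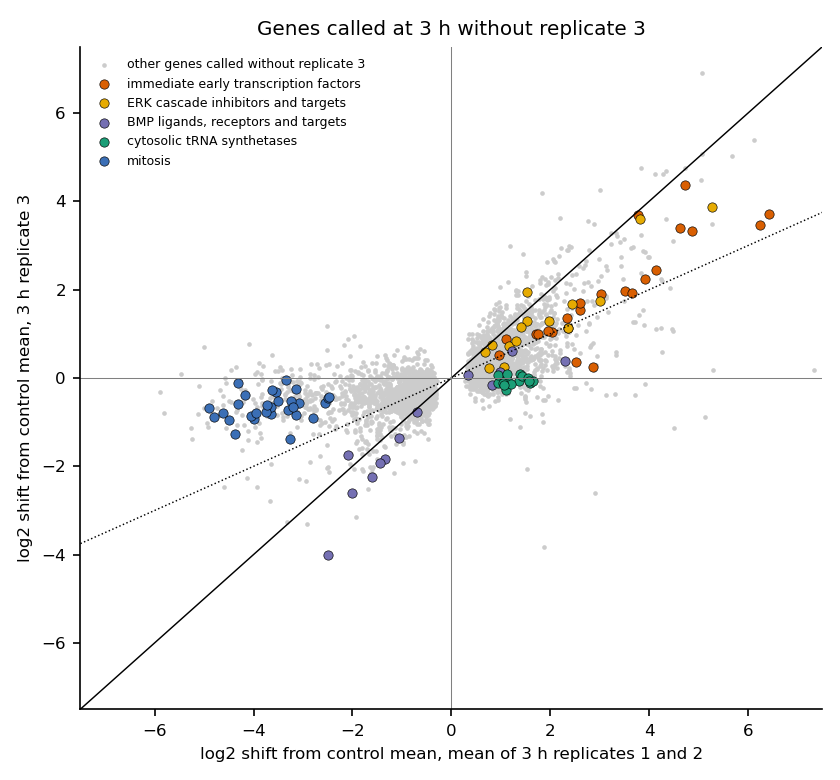
Each point is a gene called changed at 3 h against control when 3 h replicate 3 was left out. The x axis gives the log2 shift from the control mean of 3 h replicates 1 and 2 (mean) and the y axis that of 3 h replicate 3. The solid line marks equal shifts and the dotted line 50% of the pair's shift. Immediate early genes and ERK targets lie on the positive side on both axes, BMP genes reach below the solid line at the lower left, tRNA synthetase genes lie near 0 on the y axis, and mitosis genes lie much nearer to 0 on the y axis than on the x axis.

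Nearly all immediate early transcription factors rose at 3 h. Of 24 tested members 23 were called higher and 0 lower, with a median log2 change of 2.37, and the same number were called without 3 h replicate 3. Under library size scaling 22 were higher. Egr1 (ENSRNOG00000019422), a zinc finger transcription factor, had 389, 362 and 129.5 CPM at 3 h, against 26.5, 29.8 and 44.8 CPM in controls. It rose by 3.12 ± 0.37 (edgeR adjusted p = 0.000381). Its relative Egr2 had 93.6, 97.99 and 32.98 CPM at 3 h, against 2.65, 2.29 and 5.54 CPM in controls (4.43 ± 0.45). All 3 treated libraries were above all controls for both genes, with replicate 3 the lowest of the treated. Fosb (ENSRNOG00000046667), a subunit of the AP-1 transcription factor, had 73.6, 68.8 and 10.8 CPM at 3 h, against 0.856, 0.428 and 1.32 CPM in controls, a rise of 5.89 ± 0.72. Fos itself had 27.04, 24.9 and 19.1 CPM at 3 h, against 13.1, 12 and 14.5 CPM in controls (0.84 ± 0.26). The nuclear receptor Nr4a1 (ENSRNOG00000007607) had 406, 357 and 54.9 CPM at 3 h, against 4.71, 3.86 and 6.69 CPM in controls and rose by 5.75 ± 0.80, and its relative Nr4a3 had 58.1, 59.8 and 17.6 CPM at 3 h, against 4.79, 4.71 and 4.40 CPM in controls (3.28 ± 0.57). Replicate 3 was above the controls for 23 of the 24 members, and the median shift over members was 1.62 in replicate 3 and 2.74 in the pair. Myc, a transcription factor of growth and division, was alike in all treated libraries, at 132, 141 and 117 CPM at 3 h, against 64.1, 62.8 and 63.2 CPM in controls (1.03 ± 0.11). Egr4 had 1.48, 2.75 and 1.56 CPM at 3 h and 3 reads in all over the controls, too few for a fold change. Klf6 was the member without a call, at 243, 256 and 339.9 CPM at 3 h, against 207, 186 and 195 CPM in controls. Leaving out 1 library ended the call of Fos in each case other than 3 h replicate 3 (0.74 to 0.98).

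Nr4a2 (ENSRNOG00000005600), the nuclear receptor needed for the making of midbrain dopaminergic neurons, stood apart from its relatives in this respect. It had 43.2, 46.6 and 7.24 CPM at 3 h, against 7.45, 4.71 and 6.42 CPM in controls. The pair was above all controls while replicate 3 lay within them. The call (2.38 ± 0.60, adjusted p = 0.0208) was kept without replicate 3 (2.86) and lost when any other single library was left out (2.03 to 2.86).

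Most inhibitors and targets of the ERK kinase cascade were called higher. Of 17 tested members 15 were called higher and 0 lower, with a median of 1.33, as many as without replicate 3, and 13 under library size scaling. Replicate 3 was above all controls for 17 of 17, with a median shift of 1.13 against 1.41 in the pair. Dusp5 (ENSRNOG00000014061), a nuclear phosphatase of ERK, had 535, 567 and 209.7 CPM at 3 h, against 13.4, 16.9 and 12.8 CPM in controls and rose by 4.92 ± 0.38 (adjusted p = 3.65e-05). Dusp4, a related phosphatase, had 178, 164 and 148 CPM at 3 h, against 11.7, 11.9 and 12.6 CPM in controls (3.76 ± 0.34). For Dusp4 replicate 3 was close to the pair, whereas for Dusp5 it was lower than the pair but far above the controls. Errfi1, an inhibitor of the EGF receptor, had 787, 809 and 473 CPM at 3 h, against 146, 169 and 130.0 CPM in controls (2.21 ± 0.23), and Phlda1, a target of growth factor signalling, had 960.4, 1024 and 412 CPM at 3 h, against 123, 127 and 121 CPM in controls (2.69 ± 0.32). The members without a call were Spred2 and Etv1, at 0.23 ± 0.12 and 0.01 ± 0.20, and their sign changed with the scaling. Dusp9 had 2.26, 3.08 and 0.733 CPM at 3 h, and 2 reads in all over the controls.

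Promoters of genes in these groups are shown with the letters of known factor motifs, as sequence context. They span 250 bases before and 50 after the start of the gene in RefSeq (GRCr8), 300 bases in all, and capitals mark the motif. Dusp5 lies on the plus strand at chr1:262543524-262543823 and carries a pair of adjacent CArG boxes, the motif of the factor SRF, the first beginning at base -82 relative to the start. Nr4a1 is on the plus strand at chr7:134259888-134260187, with a kappa B motif at -16. Xirp1, which encodes an actin-binding protein and is described further below, is on the minus strand at chr8:128634962-128635261, with an AP-1 motif (TGANTCA) at -208. Areg, an EGF receptor ligand, is on the minus strand at chr14:17265592-17265891, with a CRE (TGACGTCA) at -91.
Dusp5: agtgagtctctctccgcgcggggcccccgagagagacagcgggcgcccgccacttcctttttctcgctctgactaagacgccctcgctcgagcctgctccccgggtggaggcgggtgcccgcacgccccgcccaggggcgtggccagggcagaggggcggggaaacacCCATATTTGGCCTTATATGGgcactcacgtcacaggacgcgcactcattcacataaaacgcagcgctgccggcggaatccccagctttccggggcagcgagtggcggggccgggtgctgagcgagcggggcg
Nr4a1: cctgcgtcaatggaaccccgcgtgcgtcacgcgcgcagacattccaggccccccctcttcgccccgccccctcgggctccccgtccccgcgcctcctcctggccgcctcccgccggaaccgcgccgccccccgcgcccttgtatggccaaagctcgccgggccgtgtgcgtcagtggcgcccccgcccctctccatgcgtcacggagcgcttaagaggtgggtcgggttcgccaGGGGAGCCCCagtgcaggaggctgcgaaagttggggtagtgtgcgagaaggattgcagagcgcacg
Xirp1: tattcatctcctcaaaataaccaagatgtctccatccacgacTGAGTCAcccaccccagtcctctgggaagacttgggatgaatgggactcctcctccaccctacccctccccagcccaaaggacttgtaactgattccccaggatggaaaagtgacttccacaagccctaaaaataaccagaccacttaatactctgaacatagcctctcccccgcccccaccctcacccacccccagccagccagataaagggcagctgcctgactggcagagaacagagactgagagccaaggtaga
Areg: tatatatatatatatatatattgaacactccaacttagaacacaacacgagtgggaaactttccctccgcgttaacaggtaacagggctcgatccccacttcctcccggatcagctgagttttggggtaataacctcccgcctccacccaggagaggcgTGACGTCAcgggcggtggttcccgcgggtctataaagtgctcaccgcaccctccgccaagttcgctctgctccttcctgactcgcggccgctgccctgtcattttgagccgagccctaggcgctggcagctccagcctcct
For each motif the gene shown is the called gene with the largest change, among those the naming rule picked, that holds it. Both strands were searched. Of 9327 tested symbols 7269 had a promoter in the table. The CRE was found in 2.77% of these promoters, in 5.35% of those of genes called higher and in 2.16% of those of genes called lower. The AP-1 motif was found in 3.62%, in 5.25% for genes called higher and in 2.33% for genes called lower, and the CArG box in 1.35% of all, 1.41% of those called higher and 0.666% of those called lower. For the kappa B motif these shares were 5.48, 5.96 and 3.83%, in the same order. Of 14 immediate early promoters, 3 held a CRE (21.4%) and 3 a CArG box (21.4%). The sequence TGACGTCA also holds part of the AP-1 motif but does not match it in full. Such matches are a description of the letters and not of binding.

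Growth factors were called higher in part. Of 22 tested members 10 were called higher and 0 lower, 12 and 0 without replicate 3, with replicate 3 above all controls for 15. Hbegf (ENSRNOG00000018646), a ligand of the EGF receptor, had 1074, 1144 and 1064 CPM at 3 h, against 113, 123 and 95.3 CPM in controls. Its 3 treated libraries were nearly equal, and it rose by 3.31 ± 0.15 (adjusted p = 1.55e-06). The EGF receptor ligands Areg and Ereg were lower in replicate 3 than in the pair. Areg had 142, 124 and 25.1 CPM at 3 h, against 10.5, 13 and 8.01 CPM in controls (3.20 ± 0.58) and Ereg had 145, 158 and 38.02 CPM at 3 h, against 9.59, 7.78 and 6.69 CPM in controls (3.82 ± 0.57), still with replicate 3 above all controls. Bdnf and Gdnf, neurotrophic factors that act on dopaminergic neurons among others, were low in level. Bdnf had 18.97, 19.8 and 6.05 CPM at 3 h, against 3.17, 2.50 and 5.63 CPM in controls (1.99 ± 0.48) and Gdnf had 5.01, 5.17 and 2.11 CPM at 3 h, against 0.77, 0.214 and 0.968 CPM in controls (2.65 ± 0.61). For both the treated libraries did not overlap the controls, although the margin in replicate 3 was small for Bdnf. Fgf18, a fibroblast growth factor, was alike in the treated libraries at 6.29, 5.94 and 6.23 CPM at 3 h, against 0.428, 0 and 0.704 CPM in controls (4.04 ± 0.96). The call of Bdnf was lost without 3 h replicate 1 or 2 or control replicate 1 or 2 (1.74 to 2.40), that of Gdnf without 3 h replicate 2 or control replicate 2 (2.22 to 3.05) and that of Fgf18 without control replicate 1 (3.42 to 4.85). Pdgfc and Cntf, which were not called, had log2 changes of 0.09 ± 0.18 and 0.03 ± 0.14, with signs that changed with the scaling.

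Several cytokines of the interleukin 6 family were called higher. Lif (ENSRNOG00000007002), which promotes the astrocyte fate of neural precursors through STAT3, had 1101, 1094 and 657 CPM at 3 h, against 53.2, 57.6 and 52.3 CPM in controls, a rise of 4.13 ± 0.24 (adjusted p = 1.1e-05). Il11 had 33.03, 34.4 and 20.6 CPM at 3 h, against 1.88, 3.14 and 2.99 CPM in controls (3.45 ± 0.41), Clcf1 had 207, 202 and 102 CPM at 3 h, against 29.02, 28.9 and 33.4 CPM in controls (2.48 ± 0.34) and Il6 had 10.7, 15.1 and 6.41 CPM at 3 h, against 3.51, 1.36 and 3.43 CPM in controls (1.96 ± 0.45). None of these overlapped the controls in any treated library, and the Il6 call was lost without 3 h replicate 2 (1.62 to 2.23). In the list of this family and its STAT3 targets 6 of 16 tested members were higher and 1 lower, and 8 and 4 without replicate 3. The receptors differed by library. Il6st, the shared signal-transducing receptor, had 664, 664 and 478 CPM at 3 h, against 418, 439.5 and 478 CPM in controls, and Osmr, the oncostatin M receptor, had 366, 412 and 198 CPM at 3 h, against 195, 191 and 223 CPM in controls. For both the pair was above all controls, replicate 3 was not, and the gene was called only without replicate 3 (0.58 and 0.94).

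Targets of cAMP and CREB, many of them shared with the immediate early list, were called higher for 14 of 22 tested members and lower for 0, with a median of 1.27. Without replicate 3, 14 were higher and 2 lower. Replicate 3 was above all controls for 14, with a median shift of 0.43 against 1.51 in the pair. Rgs2, which ends signalling by G proteins of the Gq class, had 18.97, 20.2 and 10.5 CPM at 3 h, against 5.39, 5.50 and 5.54 CPM in controls (1.59 ± 0.34). Creb1 itself was not called, at 22.2, 26.7 and 40.4 CPM at 3 h, against 54.01, 46.3 and 43.6 CPM in controls, with each treated library below all controls, replicate 3 nearest to them, and a call without replicate 3 (-0.96). Among regulators of G protein signalling 6 of 19 tested members were higher and 0 lower, and 6 and 3 without replicate 3. Over the list replicate 3 moved further than the pair, with a median shift of 0.74 against 0.51. Rgs16 had 238, 234 and 355 CPM at 3 h, against 101, 99.5 and 88.1 CPM in controls (1.52 ± 0.24), with its highest level in replicate 3. Gem, a small GTPase that inhibits calcium channels, had 88.9, 101 and 83.6 CPM at 3 h, against 17.5, 14.5 and 26.7 CPM in controls (2.22 ± 0.31), and Rasl11a, another small GTPase, had 2.85, 2.64 and 7.42 CPM at 3 h, against 0.428, 0.785 and 0.528 CPM in controls (2.86 ± 0.55, and 2.21 without replicate 3).

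Several targets of bone morphogenetic protein (BMP) signalling fell, and over the list replicate 3 moved further than the pair. BMPs act through SMAD proteins and induce Id genes, whose products block basic helix-loop-helix factors. Id3 (ENSRNOG00000026124) had 121, 116 and 78.2 CPM at 3 h, against 506, 477 and 443 CPM in controls, a fall of -2.17 ± 0.17 (adjusted p = 3.65e-05). Id2 had 47.5, 41.9 and 28.5 CPM at 3 h, against 142, 121 and 146 CPM in controls (-1.80 ± 0.18) and Id1 had 66.8, 51.9 and 41.7 CPM at 3 h, against 161, 160.3 and 156 CPM in controls (-1.57 ± 0.17). In all 3 genes every treated library was below every control and replicate 3 was the lowest. Atoh8, a helix-loop-helix factor and BMP target, had 14.3, 11.6 and 4.49 CPM at 3 h, against 79.2, 73.3 and 65.5 CPM in controls (-2.84 ± 0.47), and Hey1, a repressor shared with the Notch pathway, had 32.9, 35.7 and 24.5 CPM at 3 h, against 86.9, 82.8 and 91.8 CPM in controls (-1.49 ± 0.18). The inhibitory SMADs also fell. Smad6 had 3.93, 3.74 and 4.95 CPM at 3 h, against 18.6, 16.4 and 14.96 CPM in controls (-1.98 ± 0.29) and Smad7 had 17.8, 15.3 and 12.3 CPM at 3 h, against 30.2, 32.1 and 31.2 CPM in controls (-1.04 ± 0.15). Of 20 tested members of the list 3 were higher and 8 lower, against 13.5% and 7.94% of all genes, and 5 and 8 without replicate 3. The median shift was -0.69 in replicate 3 and -0.18 in the pair, and 12 members were below all controls in replicate 3. The ligand Bmp2 went the other way in the pair, at 26.4, 26.9 and 7.05 CPM at 3 h, against 5.05, 6.21 and 5.02 CPM in controls (1.89 ± 0.47), with replicate 3 closest to the controls and a call lost when any library other than 3 h replicate 3 was left out (1.63 to 2.30). Bmpr2, a receptor, and Smad5, which carries the signal, were not called (0.01 ± 0.14 and 0.26 ± 0.13, with signs that changed with the scaling).

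Other developmental pathways showed fewer calls. For TGF-beta and activin 5 of 20 tested members were higher and 1 lower, and 10 and 1 without replicate 3. Smad3, which carries TGF-beta signals, had 150.1, 141 and 138 CPM at 3 h, against 61.9, 72.5 and 58.4 CPM in controls (1.16 ± 0.16), alike in all treated libraries. Inhbb, an activin subunit, had 24.4, 29.3 and 28.9 CPM at 3 h, against 9.42, 14.3 and 13.6 CPM in controls (1.14 ± 0.26, lost without control replicate 1, 0.98 to 1.25). In the Wnt list 5 of 24 were higher and 0 lower, with 7 and 0 without replicate 3 and 2 and 1 under library size scaling. Lef1, a transcription factor of the pathway, had 15.1, 18.3 and 22.9 CPM at 3 h, against 3.94, 3.43 and 7.39 CPM in controls (1.93 ± 0.36). For the ligand Wnt5a the levels were 78.8, 82.5 and 63.4 CPM at 3 h, against 40.3, 40.6 and 42.95 CPM in controls (0.86 ± 0.24), a call lost when any library other than 3 h replicate 3 was left out (0.79 to 0.97). In the Notch list 5 of 16 were higher and 2 lower (6 and 2 without replicate 3), with a median of 0.14 that became -0.16 under library size scaling. The ligand Jag2 had 3.83, 2.53 and 4.76 CPM at 3 h, against 0.942, 0.428 and 0.44 CPM in controls (2.61 ± 0.52). Hes1, the repressor that Notch induces, had 21.04, 22.2 and 8.24 CPM at 3 h, against 10.6, 10.1 and 10.9 CPM in controls. The pair was above and replicate 3 below all controls, and Hes1 was called only without replicate 3 (1.04, adjusted p = 0.000376, and 0.70 ± 0.29 with it). In the hedgehog list 0 of 6 were higher and 2 lower, and 1 and 3 without replicate 3. The coreceptor Cdon had 28.9, 33.98 and 29.96 CPM at 3 h, against 47.7, 47.1 and 52.6 CPM in controls (-0.67 ± 0.14) and the repressor Gli3 had 56.1, 65.4 and 61.6 CPM at 3 h, against 80.98, 83.7 and 96.2 CPM in controls (-0.51 ± 0.12, lost without 3 h replicate 1 or control replicate 3, -0.56 to -0.43), each alike in the 3 treated libraries.

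**Figure D2:**
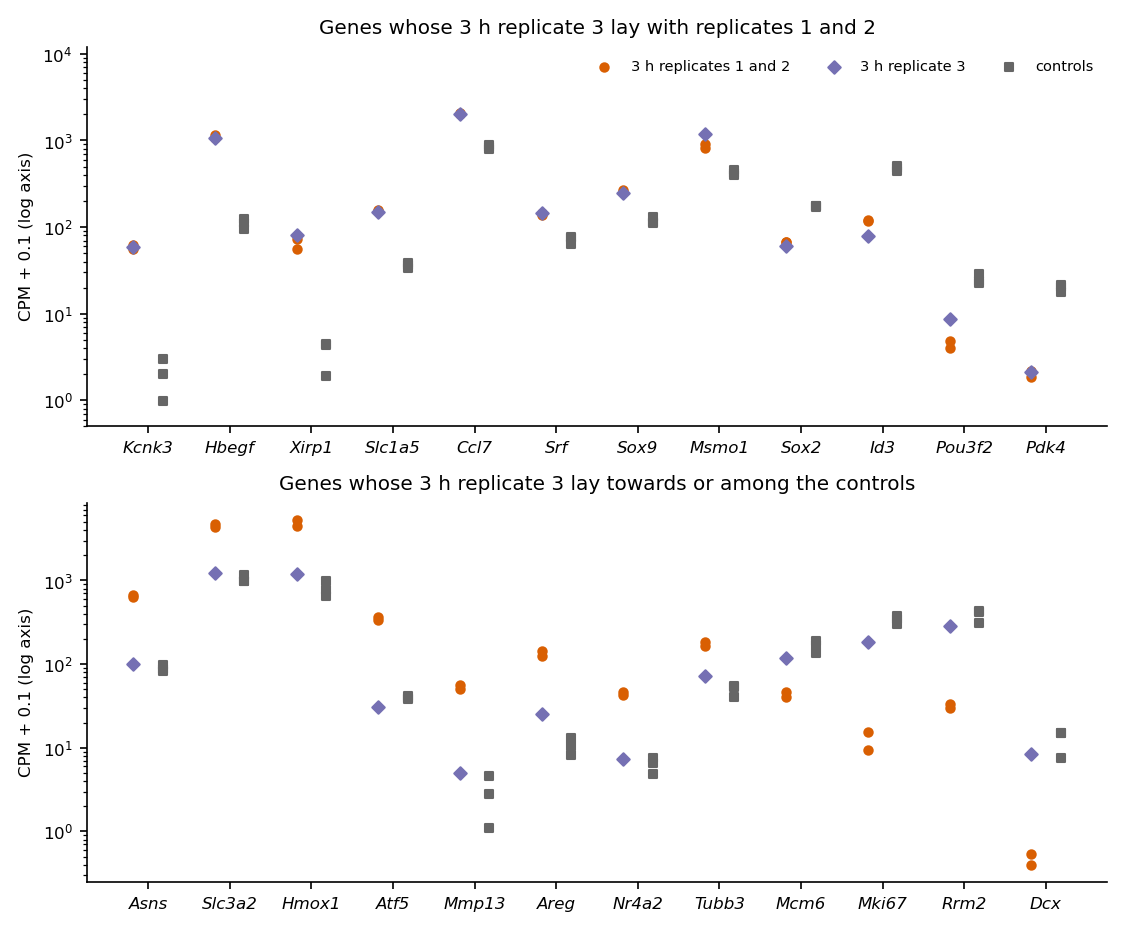
Levels (CPM plus 0.1, log axis) of 24 genes in each library, with 3 h libraries left and controls right of each gene name. Circles are 3 h replicates 1 and 2, diamonds 3 h replicate 3 and squares the 3 controls. The genes were picked after their values were seen, as examples of agreement in the upper panel (such as Kcnk3, Hbegf and Sox2) and of a replicate 3 lying towards or among the controls in the lower panel (such as Asns, Hmox1 and Mki67).

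Members of the NF-kB pathway and its targets, genes of inflammation, were called higher for 7 of 24 and lower for 0, and for 7 and 1 without replicate 3. Under library size scaling 2 were higher. In this list replicate 3 was above all controls for 19 members, with a median shift of 0.58 there and -0.09 in the pair. The NF-kB subunits Rela and Nfkb2 had 217, 246 and 191 CPM at 3 h, against 132, 128 and 122 CPM in controls (0.77 ± 0.11), and 204, 189 and 194 CPM at 3 h, against 112, 108 and 110.5 CPM in controls (0.82 ± 0.18). The adhesion molecule Icam1 had 356, 349 and 245 CPM at 3 h, against 162, 171 and 159 CPM in controls (0.95 ± 0.15). In all 3 genes each treated library was above each control. Tnfaip2 was not called, with its highest level in replicate 3 (364, 393 and 578 CPM at 3 h, against 366, 350.0 and 287 CPM in controls). Of chemokines and cytokines 8 of 22 were higher and 2 lower, and 6 and 1 without replicate 3, with a median of 0.29 that was -0.003 under library size scaling. Ccl7, a chemokine for monocytes, had 2076, 2028 and 2035 CPM at 3 h, against 848, 808 and 896 CPM in controls (1.27 ± 0.28), nearly equal in the treated libraries. Csf3, a growth factor of granulocytes, had 14.3, 13.3 and 12 CPM at 3 h, against 4.88, 3.71 and 2.82 CPM in controls (1.79 ± 0.34), and Cxcl2, a neutrophil chemokine, had 99.5, 99.3 and 107 CPM at 3 h, against 44.5, 35.6 and 36.5 CPM in controls (1.39 ± 0.34, lost without 3 h replicate 1 or 2 or control replicate 2 or 3, 1.33 to 1.50). Cxcl1 was not called, at 618, 615 and 578 CPM at 3 h, against 938, 863 and 652 CPM in controls. Among interferon and antiviral genes 2 of 30 were higher and 0 lower, and 2 and 1 without replicate 3, with a median shift of -0.90 in the pair and 0.27 in replicate 3. Oasl, of the oligoadenylate synthetase family, had 85.04, 80.8 and 120.1 CPM at 3 h, against 14.2, 14.3 and 17.8 CPM in controls (2.63 ± 0.75), a call lost when any library other than 3 h replicate 3 was left out (2.43 to 2.74). Tap1, a peptide transporter of antigen presentation, had 116, 127 and 121 CPM at 3 h, against 68.9, 72.3 and 83.96 CPM in controls (0.69 ± 0.14). Microglia express many genes of these lists. Their marker sum, given above, was higher in replicate 3 than in the pair, and its part in these values was not tested.

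Genes of the integrated stress response, which follows phosphorylation of the initiation factor eIF2 and acts through ATF4, divided the treated libraries. Of 26 tested members 14 were called higher and 0 lower with all libraries, at a median of 1.27, and 21 and 0 without replicate 3. The median shift was 1.66 in the pair and 0.19 in replicate 3. One set of members rose in all treated libraries. Gdf15, a stress-induced cytokine, had 933, 966 and 343 CPM at 3 h, against 75.9, 65.3 and 58.4 CPM in controls (3.49 ± 0.39). Ppp1r15a, which reverses eIF2 phosphorylation, had 452, 427 and 178 CPM at 3 h, against 51.5, 52.6 and 47.3 CPM in controls (2.80 ± 0.29), and Slc7a1, a carrier of basic amino acids, had 272, 258 and 113 CPM at 3 h, against 56.1, 57.1 and 42.8 CPM in controls (2.04 ± 0.36). Others were high in the pair and near control in replicate 3. Asns (ENSRNOG00000007546), which makes asparagine, had 678, 637 and 101 CPM at 3 h, against 82.3, 96.3 and 87.6 CPM in controls (2.41 ± 0.67, adjusted p = 0.0297). Slc3a2, the heavy chain of amino acid exchangers, had 4786, 4377 and 1213 CPM at 3 h, against 972, 979 and 1164 CPM in controls (1.74 ± 0.50). Atf5, a transcription factor, had 369.6, 334 and 30.3 CPM at 3 h, against 41.6, 38.4 and 39.8 CPM in controls, below all controls in replicate 3, and was called only without it (3.14). Phgdh, the first enzyme of serine synthesis, had 801, 743 and 220.5 CPM at 3 h, against 254, 275 and 218 CPM in controls, with replicate 3 within the controls, and was likewise called only without it (1.64). Calls of Asns (2.06 to 2.89) and Slc3a2 (1.44 to 2.15) were lost when any library other than 3 h replicate 3 was left out. Chac1, which degrades glutathione, was above all controls in replicate 3 too, at 28.4, 25.2 and 11.3 CPM at 3 h, against 3.00, 3.93 and 3.87 CPM in controls (2.58 ± 0.63), with the same loss of its call (2.34 to 2.90). The Chac1 promoter (RefSeq, GRCr8, chr3:126795881-126796180, plus strand) is shown for its match to the CARE motif (TGATGNAA), the element read by CEBP and ATF factors, found here in its reverse complement, in capitals, from base -167 relative to the start.
Chac1: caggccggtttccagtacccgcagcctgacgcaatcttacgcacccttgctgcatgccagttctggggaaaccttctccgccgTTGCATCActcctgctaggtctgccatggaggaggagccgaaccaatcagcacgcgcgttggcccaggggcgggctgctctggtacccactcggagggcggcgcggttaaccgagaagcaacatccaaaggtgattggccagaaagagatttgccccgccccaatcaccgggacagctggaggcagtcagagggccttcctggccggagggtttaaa
The CARE motif was found in 2.08% of all promoters, in 2.73% for genes called higher and in 1.50% for genes called lower.

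Cytosolic tRNA synthetases, which load amino acids on tRNAs, followed the pair alone. With all libraries 3 of 17 tested members were called higher and 0 lower, and without replicate 3 the counts were 15 and 0. The median shift was 1.13 in the pair and -0.06 in replicate 3. Eprs had 1668, 1562 and 491 CPM at 3 h, against 533, 532 and 537 CPM in controls, Nars1 had 961, 890.0 and 315 CPM at 3 h, against 328, 314 and 305 CPM in controls and Aars1 had 845, 786 and 330.3 CPM at 3 h, against 317, 321 and 296 CPM in controls. The pair was above all controls for each, and replicate 3 was below the controls for Eprs, within them for Nars1 and just above them for Aars1. Aars1, Gars and Rars1 were called with all libraries (1.07 ± 0.30, 1.09 ± 0.33 and 0.70 ± 0.22), and these calls were lost when any library other than 3 h replicate 3 was left out (0.85 to 1.40, 0.86 to 1.43 and 0.53 to 0.95). The CARE motif was found in 6 of 12 synthetase promoters. Ribosome biogenesis genes behaved alike, with 7 of 25 higher and 0 lower with all libraries, 22 and 0 without replicate 3, and median shifts of 0.55 in the pair and -0.05 in replicate 3. Rrp9, which processes ribosomal RNA, had 88.3, 89.6 and 52.6 CPM at 3 h, against 38.4, 40.3 and 34.9 CPM in controls (1.02 ± 0.21), above all controls in each treated library. Nolc1, a nucleolar protein, had 380.3, 369.9 and 209 CPM at 3 h, against 228, 234 and 209 CPM in controls and was called only without replicate 3 (0.75).

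Targets of NRF2, the factor of the antioxidant response, were above control in replicate 3 as well, by less than in the pair. Of 28 tested members 11 were called higher and 0 lower, at a median of 0.76, 15 and 0 without replicate 3 and 6 and 0 under library size scaling. Replicate 3 was above all controls for 22, with a median shift of 0.24 against 0.98 in the pair. Hmox1 (ENSRNOG00000014117), which degrades haem, had 5248, 4459 and 1187 CPM at 3 h, against 779, 658 and 994 CPM in controls (2.16 ± 0.55, adjusted p = 0.0215). Srxn1, which repairs oxidised peroxiredoxins, had 126, 135 and 50.6 CPM at 3 h, against 30.2, 21.99 and 26.9 CPM in controls (1.98 ± 0.45). Fth1, the heavy chain of ferritin, had 28600, 26430 and 14280 CPM at 3 h, against 10450, 8835 and 11400 CPM in controls (1.18 ± 0.37). It made up 2.37, 2.24 and 1.45% of all counts at 3 h, against 1.17, 0.99 and 1.25% in controls. Akr1b8, an enzyme related to aldose reductase, had 3077, 2754 and 944 CPM at 3 h, against 863, 797 and 758 CPM in controls (1.49 ± 0.46). In each of these genes the pair was far above the controls, and replicate 3 was above them by much less. The calls of Hmox1 (1.81 to 2.59), Fth1 (1.00 to 1.43) and Akr1b8 (1.21 to 1.86) were lost when any library other than 3 h replicate 3 was left out, and that of Srxn1 without 3 h replicate 2 or control replicate 2 (1.75 to 2.31). Nqo1, a quinone reductase, was abundant and not called, at 6778, 6327 and 5168 CPM at 3 h, against 4668, 4352 and 4621 CPM in controls.

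Targets of p53 were called higher for 11 of 23 tested members and lower for 0, and for 15 and 0 without replicate 3. Cdkn1a, the cyclin-dependent kinase inhibitor p21, had 1101, 1067 and 539 CPM at 3 h, against 269.6, 269.6 and 274 CPM in controls (1.74 ± 0.30). Mdm2, the ubiquitin ligase of p53, had 684, 661 and 247 CPM at 3 h, against 173, 170.2 and 176 CPM in controls (1.62 ± 0.35), and the kinases Plk2 and Plk3 had 328, 324 and 243 CPM at 3 h, against 92.2, 93.1 and 92.3 CPM in controls (1.69 ± 0.17) and 116, 93.4 and 43.7 CPM at 3 h, against 18.9, 22.6 and 22.3 CPM in controls (1.99 ± 0.31). Replicate 3 was above all controls in these 4 genes and below the pair in each. Among heat shock proteins and co-chaperones 2 of 21 were higher and 1 lower with all libraries, against 10 and 1 without replicate 3, with median shifts of 0.47 in the pair and -0.15 in replicate 3. Hspa1a, the inducible HSP70, had 428, 384 and 80.4 CPM at 3 h, against 25.3, 27.6 and 29.6 CPM in controls (3.44 ± 0.71), above controls in each treated library. Hspa8, the constitutive form, had 5196, 4994 and 3175 CPM at 3 h, against 4192, 4154 and 4330 CPM in controls and was not called, and its sign changed with the scaling. Bag3, a co-chaperone, had 713, 688 and 357 CPM at 3 h, against 229.6, 229.7 and 253 CPM in controls (1.30 ± 0.30, lost without 3 h replicate 1 or 2 or control replicate 1 or 2, 1.15 to 1.57). In the unfolded protein response of the endoplasmic reticulum 1 of 18 was higher and 1 lower, and 6 and 1 without replicate 3. Xbp1, a transcription factor of that response, had 188, 204 and 176 CPM at 3 h, against 115, 121 and 118 CPM in controls (0.69 ± 0.10), alike in the treated libraries, and the chaperones Calr and Hsp90b1 were not called (0.03 ± 0.12, with a sign that changed with the scaling, and -0.13 ± 0.12).

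The glucose transporters Slc2a1 and Slc2a3 rose, each in all treated libraries. Slc2a1 (ENSRNOG00000007284), the main glucose transporter of astrocytes, had 1366, 1265 and 938 CPM at 3 h, against 338, 327 and 376 CPM in controls (1.78 ± 0.22, adjusted p = 0.000499). The transporter Slc2a3 had 80.3, 83.9 and 58.5 CPM at 3 h, against 22.5, 26.99 and 25.6 CPM in controls (1.57 ± 0.23), and the hypoxia-responsive gene Ndrg1 had 89.96, 92.5 and 82.5 CPM at 3 h, against 26.2, 21.99 and 22.9 CPM in controls (1.90 ± 0.26). Hk2, which phosphorylates glucose, had 152, 152 and 68.98 CPM at 3 h, against 52.4, 49.6 and 49.5 CPM in controls (1.30 ± 0.28), with replicate 3 closer to the controls. In the list of hypoxia and glycolysis 7 of 21 were higher and 0 lower, and 12 and 1 without replicate 3. The glycolytic enzymes Aldoa and Pkm were called only without replicate 3 (0.78 and 0.65), although replicate 3 too was above all controls. Of genes of fatty acid use 1 of 18 was higher and 2 lower (3 and 2 without replicate 3), beside 13.5% and 7.94% of all tested genes. Pdk4 (ENSRNOG00000009565), which inhibits pyruvate dehydrogenase, had 1.77, 2.09 and 2.02 CPM at 3 h, against 20.4, 17.6 and 21.1 CPM in controls, a fall of -3.32 ± 0.25 shared by the 3 treated libraries. Angptl4, a secreted inhibitor of lipoprotein lipase, had 38.05, 34.1 and 62.1 CPM at 3 h, against 293, 298 and 327 CPM in controls (-2.77 ± 0.46), with replicate 3 well below the controls. Cpt1a, the carnitine transferase of fatty acid import into mitochondria, was not called (-0.18 ± 0.17).

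In cholesterol synthesis replicate 3 stood higher than the pair. Msmo1 (ENSRNOG00000032297), a sterol oxidase, had 827, 905 and 1189 CPM at 3 h, against 399, 421 and 456 CPM in controls (1.20 ± 0.17), with all treated libraries above all controls and replicate 3 the highest. Other genes of the route split the libraries in opposite directions. Hmgcs1, a synthase early in the route, had 489, 498 and 1676 CPM at 3 h, against 701, 666 and 774 CPM in controls, and Cyp51, a sterol demethylase, had 301, 331 and 849 CPM at 3 h, against 509, 551 and 599 CPM in controls. In both the pair was below all controls and replicate 3 above them, and neither was called with or without replicate 3. Of 25 tested members 4 were higher and 1 lower (4 and 3 without replicate 3), and replicate 3 was above all controls for 20, with a median shift of 0.64 against -0.36 in the pair. The list's median of 0.22 was -0.03 under library size scaling.

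Amino acid transporters were called higher for 9 of 26 and lower for 2, and for 10 and 5 without replicate 3. Slc1a5 (ENSRNOG00000015948), a carrier of glutamine and other neutral amino acids, had 157, 154 and 148 CPM at 3 h, against 38.7, 33.99 and 36 CPM in controls (2.08 ± 0.09, adjusted p = 1.55e-06), nearly equal in the treated libraries. Slc7a11, the cystine carrier, had 3031, 2568 and 976 CPM at 3 h, against 861, 668 and 1093 CPM in controls and was called only without replicate 3 (1.68). Slc1a2, the main glutamate transporter of astrocytes, was not called (563, 553 and 347 CPM at 3 h, against 253, 244 and 399.5 CPM in controls). Among polyamine and nucleotide genes 2 of 8 were higher and 0 lower (4 and 0 without replicate 3), with Odc1, the first enzyme of polyamine synthesis, at 914, 917 and 457 CPM at 3 h, against 316, 324 and 307 CPM in controls (1.27 ± 0.28). For lysosome and autophagy the counts were 2 of 21 and 0 (7 and 0 without replicate 3). Sqstm1, an autophagy receptor, had 4341, 3854 and 1752 CPM at 3 h, against 1308, 1184 and 1445 CPM in controls (1.34 ± 0.34) and the lysosomal membrane protein Lamp1 had 2855, 2766 and 1509 CPM at 3 h, against 1127, 1185 and 1319 CPM in controls (0.97 ± 0.28). Both calls were lost when any library other than 3 h replicate 3 was left out (1.10 to 1.65 and 0.83 to 1.22). In the list of insulin and PI3K feedback 5 of 18 were higher and 1 lower (7 and 1 without replicate 3). Irs2, an adaptor of the insulin receptor, had 545, 554 and 301 CPM at 3 h, against 162, 172 and 184 CPM in controls (1.43 ± 0.27), Trib1, a pseudokinase, had 282, 269 and 129 CPM at 3 h, against 49.8, 54.1 and 61.3 CPM in controls (2.04 ± 0.26), and Klf15, a transcription factor of amino acid and glucose metabolism, fell to 9.24, 9.68 and 6.96 CPM at 3 h, against 27.2, 29.4 and 30.6 CPM in controls (-1.75 ± 0.26), lowest in replicate 3.

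Clock genes were called higher for 11 of 17 tested members and lower for 1, the same counts as without replicate 3, and 7 and 2 under library size scaling. The called members were on the same side of the controls in replicate 3 in all 12 cases. Nearly all called genes were (97.4% of those higher and 99.9% of those lower), which the test itself favours. Bhlhe40, a repressor that acts on the clock, had 512, 502 and 269 CPM at 3 h, against 40.7, 41.5 and 60.02 CPM in controls (3.17 ± 0.31), and Ciart, another clock repressor, had 40.3, 35.7 and 16.03 CPM at 3 h, against 1.97, 2.50 and 2.73 CPM in controls (3.67 ± 0.37). Per1 had 177, 169.6 and 42.8 CPM at 3 h, against 33.9, 41.6 and 31.1 CPM in controls (1.87 ± 0.42) and the nuclear receptor Nr1d1 had 182, 171 and 38.7 CPM at 3 h, against 28.6, 29.1 and 34.5 CPM in controls (2.09 ± 0.54). For both the pair was far above the controls and replicate 3 just above them. The call of Nr1d1 was lost when any library other than 3 h replicate 3 was left out (1.78 to 2.53), and that of Per1 without 3 h replicate 1 or 2 or control replicate 1 or 3 (1.59 to 2.29). Clock, a core activator, was not called (-0.28 ± 0.11).

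**Figure D3:**
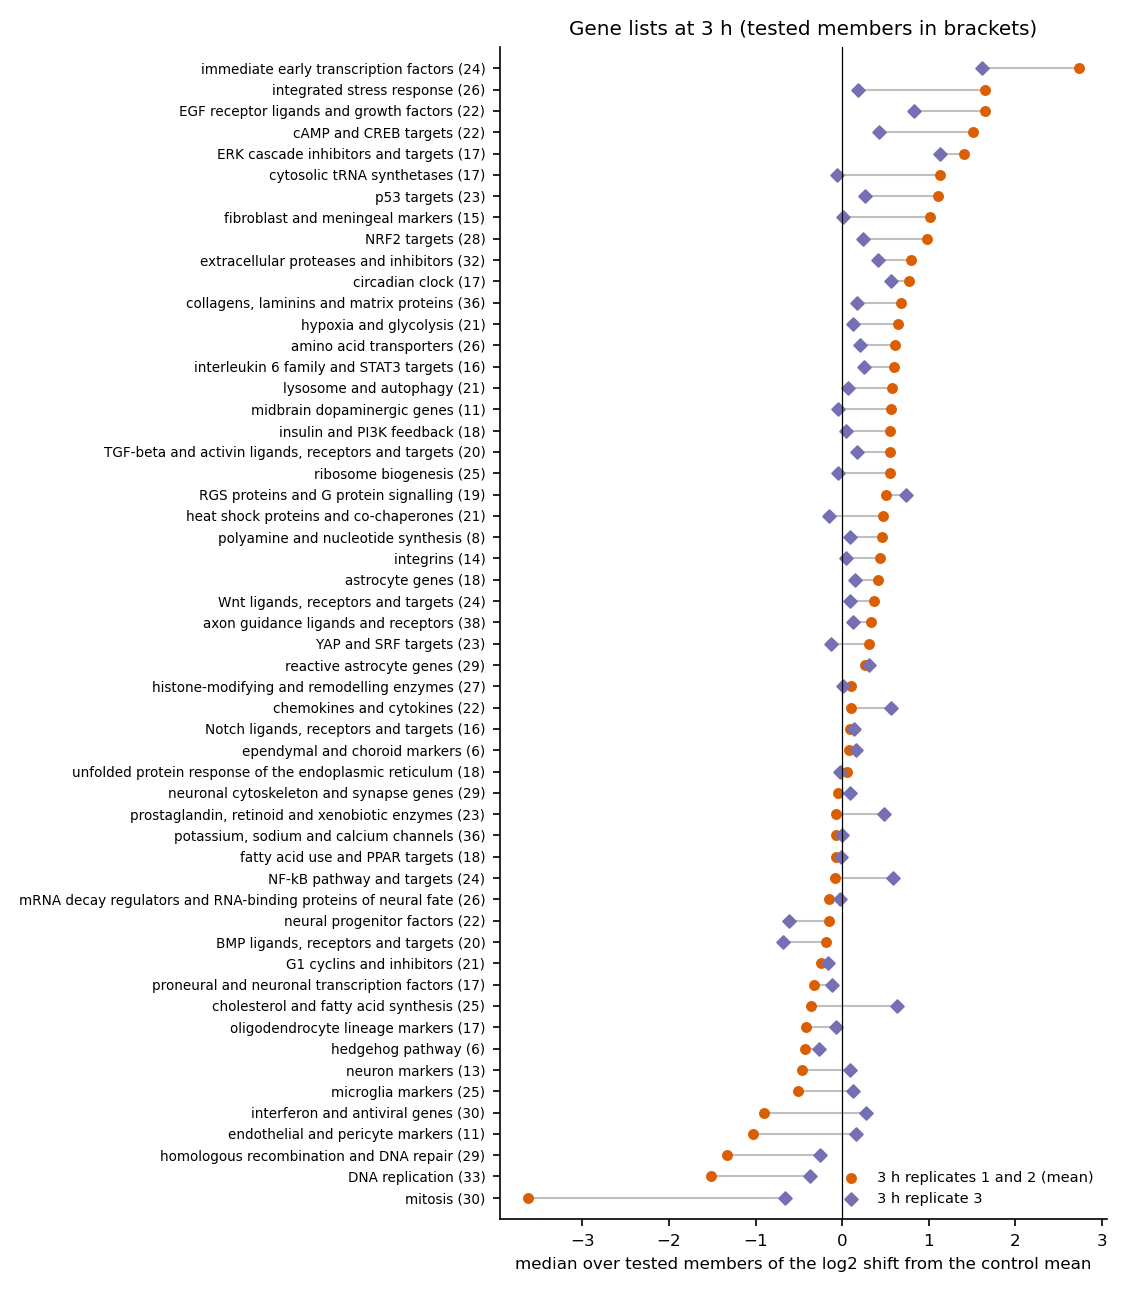
Median log2 shift from the control mean over the tested members of each gene list (number in brackets), for the mean of 3 h replicates 1 and 2 (circles) and for 3 h replicate 3 (diamonds), on TMM scaling. Immediate early, ERK and growth factor lists are above 0 in both, tRNA synthetases and ribosome biogenesis in the pair alone, and mitosis and DNA replication far below 0 in the pair. Under library size scaling, where the median change of all genes was -0.34, the median of 12 of the 54 lists changed sign.

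Genes of mitosis and DNA replication were far below control in the pair, and for most members replicate 3 was below control by less. Mki67 (ENSRNOG00000028137), a marker of dividing cells, had 15.5, 9.35 and 183 CPM at 3 h, against 346, 374 and 301 CPM in controls. It was not called with all libraries (-2.29 ± 1.21) and was called without replicate 3 (-4.76). Top2a, the topoisomerase of chromosome separation, had 13.6, 12.2 and 172 CPM at 3 h, against 288, 300.5 and 196 CPM in controls (-4.33 without replicate 3). Of 30 tested mitosis genes 0 were called higher and 1 lower with all libraries, against 0 and 30 without replicate 3. The mean log2 CPM of the list was 2.67, 2.49 and 5.58 at 3 h, against 6.33, 6.41 and 5.94 in controls. Replicate 3 was below all controls for 26 of the 30, with a median shift of -0.66 against -3.63 in the pair. Cenpe, a kinesin of the kinetochore, was the member called with all libraries, at 7.47, 10.01 and 31.8 CPM at 3 h, against 81.6, 90.8 and 76.8 CPM in controls (-2.33 ± 0.62), a call lost when any library other than 3 h replicate 3 was left out (-3.24 to -1.97). DNA replication genes showed the same order, with 0 of 33 higher and 10 lower, and 0 and 31 without replicate 3, at median shifts of -1.52 in the pair and -0.37 in replicate 3. Mcm6, a subunit of the replicative helicase, had 45.9, 39.8 and 117 CPM at 3 h, against 170.3, 191 and 134 CPM in controls (-1.29 ± 0.40). The ribonucleotide reductase subunit Rrm2 had 29.9, 33.2 and 284 CPM at 3 h, against 420.0, 427 and 306 CPM in controls and was called only without replicate 3 (-3.60). Homologous recombination and repair genes were called higher for 2 of 29 and lower for 6, and for 2 and 23 without replicate 3. Palb2, a partner of BRCA2, had 3.05, 2.31 and 7.60 CPM at 3 h, against 10.7, 10.8 and 9.68 CPM in controls (-1.26 ± 0.37), whereas Lig4, the ligase of end joining, rose alike in the treated libraries (32.6, 35.96 and 33.2 CPM at 3 h, against 18.7, 18.6 and 20.5 CPM in controls, 0.82 ± 0.11). The calls of Mcm6 (-1.94 to -1.01) and Palb2 (-1.94 to -0.95) were lost when any library other than 3 h replicate 3 was left out.

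Regulators of G1 behaved less uniformly, with 3 of 21 higher and 3 lower, and 4 and 10 without replicate 3. Cdk2, the kinase of S phase entry, had 9.24, 10.6 and 12.4 CPM at 3 h, against 29.6, 30.3 and 22.4 CPM in controls (-1.35 ± 0.21) and was below all controls in each treated library. Cdkn2b, an inhibitor of CDK4 and CDK6, had 159.8, 171 and 204 CPM at 3 h, against 51.96, 52.5 and 65.6 CPM in controls (1.65 ± 0.28), highest in replicate 3. Rbl1, a relative of the retinoblastoma protein, had 11.99, 10.8 and 34.4 CPM at 3 h, against 56.6, 49.7 and 47.6 CPM in controls (-1.43 ± 0.41), a call lost when any library other than 3 h replicate 3 was left out (-2.17 to -1.13). Its promoter (RefSeq, GRCr8, chr3:166289327-166289626, minus strand) is shown for its match to the E2F site (TTTNGCGC), in capitals, from base -18 relative to the start.
Rbl1: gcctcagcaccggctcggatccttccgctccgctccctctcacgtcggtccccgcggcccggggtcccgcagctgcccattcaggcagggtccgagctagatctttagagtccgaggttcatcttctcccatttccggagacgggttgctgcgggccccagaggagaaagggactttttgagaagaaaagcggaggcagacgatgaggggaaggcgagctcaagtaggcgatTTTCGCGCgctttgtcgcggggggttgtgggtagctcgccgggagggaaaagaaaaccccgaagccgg
The E2F site was found in 1.51% of all promoters, in 0.707% for genes called higher and in 3.66% for genes called lower. Of 27 promoters of DNA replication genes 12 held it (44.4%). The CHR element of mitotic genes (TTTGAA) was found in 11.6% of all promoters, in 7.47% for genes called higher and in 15.5% for genes called lower, and in 20 of 27 mitosis promoters (74.1%).

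Among chromatin enzymes 6 of 27 were called higher and 3 lower, and 9 and 6 without replicate 3, with a median of 0.07 that was -0.20 under library size scaling. Kdm6b (ENSRNOG00000037613), which removes the repressive H3K27 methylation mark, had 198, 199.9 and 131 CPM at 3 h, against 25.4, 27.5 and 35.3 CPM in controls (2.58 ± 0.18, adjusted p = 2.76e-05). Ezh2, which writes that mark, had 19.1, 24.6 and 30.7 CPM at 3 h, against 56.5, 60.4 and 39.2 CPM in controls (-1.07 ± 0.30), a call lost without 3 h replicate 1 or 2 or control replicate 1 or 2 (-1.25 to -0.90). Tet3, which oxidises methylated cytosine, had 58.99, 61.5 and 57.3 CPM at 3 h, against 28.2, 32.4 and 39.2 CPM in controls (0.83 ± 0.15). All treated libraries were on one side of all controls for these 3 genes. Of regulators of mRNA decay and neural RNA-binding proteins 4 of 26 were higher and 2 lower (5 and 5 without replicate 3). Zfp36 and Zfp36l1, which mark AU-rich mRNAs for decay, had 118, 117 and 78.1 CPM at 3 h, against 48.6, 40.99 and 60.5 CPM in controls (1.06 ± 0.19) and 622, 620.0 and 413 CPM at 3 h, against 249, 221 and 279.8 CPM in controls (1.14 ± 0.21), each above controls in every treated library. Ptbp1, a splicing repressor of neuronal exons, was not called, at 589, 563 and 534 CPM at 3 h, against 610.0, 635 and 568 CPM in controls (-0.10 ± 0.11).

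Several transcription factors of neural progenitors fell, in all treated libraries. Sox2 (ENSRNOG00000012199), which keeps neural stem cells undifferentiated, had 67.6, 67.2 and 59.9 CPM at 3 h, against 174, 171 and 175 CPM in controls, a fall of -1.42 ± 0.16 (adjusted p = 0.000241). Sox21, its relative, had 18.97, 18.04 and 14.7 CPM at 3 h, against 57.4, 59.1 and 76.3 CPM in controls (-1.90 ± 0.19), Emx2 had 11.6, 14.6 and 20.3 CPM at 3 h, against 41.3, 34.5 and 45.1 CPM in controls (-1.38 ± 0.21) and Pax6 had 16.1, 13.5 and 17.3 CPM at 3 h, against 32.1, 29.6 and 26.5 CPM in controls (-0.91 ± 0.19). No treated library of these 4 genes overlapped a control, as was so for 753 of the 754 genes called lower. Of 22 tested members 1 was higher and 6 lower, 3 and 6 without replicate 3 and 1 and 11 under library size scaling, and 17 were below all controls in replicate 3. Nes, the intermediate filament nestin, was not called (3536, 3170 and 1829 CPM at 3 h, against 1646, 1860 and 1209 CPM in controls), with the pair above the controls. Proneural and neuronal transcription factors were called higher for 2 of 17 and lower for 4 (3 and 4 without replicate 3). Pou3f2 (ENSRNOG00000063836), a neural transcription factor, had 3.93, 4.73 and 8.70 CPM at 3 h, against 22.8, 23.7 and 28.7 CPM in controls, a fall of -2.11 ± 0.28 (adjusted p = 0.000727). Rest, a repressor of neuronal genes, rose, at 75.7, 74.9 and 87.7 CPM at 3 h, against 47.1, 45.4 and 43.5 CPM in controls (0.81 ± 0.11). For Pou3f2 replicate 3 was the highest of the treated libraries and still below all controls. Eomes had 2.85, 2.53 and 1.01 CPM at 3 h, and 3 reads in all over the controls.

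For genes of the midbrain dopaminergic lineage and of neurons, the counts called higher were near the share of all tested genes (13.5%). Of 11 tested dopaminergic genes 2 were higher and 0 lower, with or without replicate 3, namely Nr4a2, described above, and En2, a midbrain patterning factor at 6.78, 7.15 and 12 CPM at 3 h, against 3.60, 4.43 and 3.26 CPM in controls (1.20 ± 0.30, lost without control replicate 1 or 3, 0.89 to 1.36), highest in replicate 3. Its relative En1 was at 2.46, 2.64 and 2.75 CPM at 3 h, against 3.51, 2.79 and 3.08 CPM in controls and was not called. Genes of dopamine synthesis such as Th were not analysed here. Of 28 genes listed for this lineage 12 were in the deposited table. Of 29 genes of the neuronal cytoskeleton and synapse 3 were higher and 0 lower, and 5 and 8 without replicate 3. Tubb3, a tubulin of neurons, had 182, 167 and 71.8 CPM at 3 h, against 54.01, 53.2 and 40.5 CPM in controls (1.51 ± 0.42), with replicate 3 just above the controls and a call lost when any library other than 3 h replicate 3 was left out (1.29 to 1.83). The synaptic genes Syt4 and Dlg4 had 70, 74.5 and 46.3 CPM at 3 h, against 23.4, 25.1 and 24.1 CPM in controls (1.39 ± 0.21) and 235, 234 and 264 CPM at 3 h, against 147, 148 and 157 CPM in controls (0.70 ± 0.10), both above controls in every treated library. The neurofilament gene Nefl had 364, 333 and 105 CPM at 3 h, against 84.7, 76.5 and 78.1 CPM in controls, with replicate 3 nearest to the controls. Nefm had 706, 612 and 179.6 CPM at 3 h, against 201, 183 and 182 CPM in controls, with replicate 3 just below the controls. Both were called only without replicate 3 (2.13 and 1.81). Map2, a protein of dendrites, was not called (109.8, 110.5 and 100.3 CPM at 3 h, against 109.6, 98.3 and 99.3 CPM in controls), and its sign changed with the scaling. Dcx, of migrating young neurons, had 0.295, 0.44 and 8.24 CPM at 3 h, against 14.7, 14.8 and 7.48 CPM in controls, low in the pair and within the controls in replicate 3, and was called only without replicate 3 (-5.03). The 13 tested markers of neurons summed to 1379, 1241 and 462 CPM at 3 h, against 471, 448 and 389 CPM in controls, and Nefm and Nefl held most of the sum in the pair. Over the list the median log2 change was -0.32, the median shift was -0.46 in the pair and 0.09 in replicate 3, and 1 marker was called higher and 0 lower (3 and 5 without replicate 3).

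In astrocyte genes 2 of 18 were called higher and 1 lower, and 5 and 1 without replicate 3, with a median of 0.32 that was -0.002 under library size scaling. Sox9 (ENSRNOG00000002607), a transcription factor of astrocytes and glial precursors, had 253, 267 and 251 CPM at 3 h, against 116, 111 and 132 CPM in controls (1.10 ± 0.12), alike in all treated libraries. Ntrk2, the receptor of Bdnf, had 2034, 2121 and 1288 CPM at 3 h, against 891, 886 and 1322 CPM in controls (0.81 ± 0.26), with replicate 3 within the controls and a call lost without 3 h replicate 1 or 2 or control replicate 1 or 2 (0.69 to 1.03). Nfia and Nfib, factors of the glial fate, were not called (-0.05 ± 0.16 and -0.20 ± 0.13), nor was Glul, glutamine synthetase (0.06 ± 0.42, with a sign that changed with the scaling). Of genes that mark reactive astrocytes 6 of 29 were higher and 1 lower (7 and 2 without replicate 3), with a median of 0.30 that was -0.005 under library size scaling. Ptgs2, the inducible cyclooxygenase, had 752, 699.9 and 217 CPM at 3 h, against 66.2, 60.2 and 66.8 CPM in controls (3.11 ± 0.44), and Emp1, a membrane protein, had 630.2, 558 and 482 CPM at 3 h, against 172, 181 and 129 CPM in controls (1.79 ± 0.18), each above controls in every treated library. Vim, vimentin, was not called (6004, 6067 and 3829 CPM at 3 h, against 4472, 4560 and 3363 CPM in controls).

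Extracellular proteases and their inhibitors were called higher for 13 of 32 tested members and lower for 0, 16 and 0 without replicate 3, and replicate 3 was above all controls for 21. Timp3, an inhibitor of metalloproteinases, had 168, 177 and 73.5 CPM at 3 h, against 35.4, 33.2 and 34.7 CPM in controls (2.02 ± 0.36), and Mmp3, a metalloproteinase, had 49.1, 51.5 and 26.2 CPM at 3 h, against 11.04, 9.36 and 16.9 CPM in controls (1.76 ± 0.40, lost without 3 h replicate 2 or control replicate 1 or 2, 1.59 to 2.05). Mmp13, a collagenase, was high in the pair alone, at 49.8, 55.5 and 4.86 CPM at 3 h, against 2.74, 1 and 4.49 CPM in controls (3.75 ± 0.95, lost without 3 h replicate 1 or 2 or control replicate 1 or 2, 3.33 to 4.30). Serpine2, an inhibitor of thrombin made by glia, had 5235, 5241 and 1975 CPM at 3 h, against 1284, 1323 and 1943 CPM in controls (1.45 ± 0.42), with replicate 3 just above the controls and a call lost when any library other than 3 h replicate 3 was left out (1.25 to 1.79). Of collagens, laminins and matrix proteins 4 of 36 were higher and 0 lower, and 11 and 1 without replicate 3. Lamc1, a laminin chain, had 1896, 1845 and 1316 CPM at 3 h, against 721, 880.0 and 824 CPM in controls (1.06 ± 0.23, lost without control replicate 1, 0.98 to 1.22). Fn1, fibronectin, had 10170, 9923 and 3966 CPM at 3 h, against 3363, 4428 and 3218 CPM in controls and was called only without replicate 3 (1.46). The collagens Col1a1 and Col3a1 were not called (-0.23 ± 0.48 and 0.75 ± 0.44). The fibroblast and meningeal marker sum given above was also higher in the pair, and its part in these values was not tested. Among integrins 2 of 14 were higher and 0 lower (5 and 1 without replicate 3), with Itga5, a fibronectin receptor chain, at 522, 509 and 751 CPM at 3 h, against 287, 326 and 318 CPM in controls (0.94 ± 0.20), highest in replicate 3. Of YAP and SRF targets 2 of 23 were higher and 0 lower (3 and 0 without replicate 3), with a median of 0.22 that was -0.13 under library size scaling. Those called were Srf itself, at 139, 147 and 145 CPM at 3 h, against 74.5, 77.3 and 63.8 CPM in controls (1.00 ± 0.10), and the focal adhesion protein Zyx, at 474, 460.5 and 354 CPM at 3 h, against 196, 201 and 164 CPM in controls (1.20 ± 0.16).

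Axon guidance ligands and receptors were called higher for 8 of 38 and lower for 1, and for 13 and 2 without replicate 3, with a median of 0.21 that was -0.13 under library size scaling. Epha2, an ephrin receptor, had 333, 334 and 106 CPM at 3 h, against 41, 41.6 and 30.4 CPM in controls (2.77 ± 0.50), and Unc5b, a netrin receptor, had 225, 250.3 and 158 CPM at 3 h, against 79.6, 98.5 and 95.5 CPM in controls (1.21 ± 0.21), each above controls in every treated library. Nrp2, a semaphorin receptor, had 768, 736 and 335 CPM at 3 h, against 259, 280.1 and 243 CPM in controls (1.23 ± 0.32), a call lost when any library other than 3 h replicate 3 was left out (1.05 to 1.53). Of ion channel genes 5 of 36 were higher and 2 lower, near the shares of all tested genes (13.5% and 7.94%). Without replicate 3 the counts were 7 and 6, again near those shares (21.8% and 16.5%). Kcnk3 (ENSRNOG00000009790), a background potassium channel that sets the resting potential, had 56.4, 61.8 and 58.8 CPM at 3 h, against 2.91, 1.93 and 0.88 CPM in controls, a rise of 4.94 ± 0.39 (adjusted p = 3.65e-05) that was nearly equal in the 3 treated libraries. Kcnj10, the potassium channel of astrocytes, was not called (259.7, 253 and 168 CPM at 3 h, against 174, 169.6 and 240.0 CPM in controls), and the sign of its change depended on the scaling. Enzymes of prostaglandin, retinoid and xenobiotic metabolism were called higher for 5 of 23 and lower for 0, with or without replicate 3, at a median of 0.13 that was -0.14 under library size scaling. Tiparp, a target of the aryl hydrocarbon receptor, had 682, 675 and 299 CPM at 3 h, against 159.6, 148 and 121 CPM in controls (1.95 ± 0.29). Aldh1a3, which makes retinoic acid, had 13.4, 19.8 and 83.9 CPM at 3 h, against 4.54, 5.28 and 3.96 CPM in controls (3.08 ± 0.66), and Cyp24a1, which degrades vitamin D, had 6.68, 9.13 and 27.9 CPM at 3 h, against 0.0856, 0.214 and 0.352 CPM in controls (6.00 ± 0.85), with 8 reads in all over the controls. Both were highest in replicate 3, and without it the log2 changes were 1.85 and 5.12.

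The largest single changes among genes with a mean of at least 2 CPM in the higher group were not all in these lists. Xirp1 (ENSRNOG00000037085), an actin-binding protein best known from muscle, had 73.2, 56.2 and 80.5 CPM at 3 h, against 1.80, 4.36 and 4.31 CPM in controls (4.32 ± 0.30). Fam83g had 8.55, 11 and 6.60 CPM at 3 h, against 0.257, 0.357 and 0.176 CPM in controls (4.97 ± 0.54). Both were above all controls in each treated library, and Xirp1 was highest in replicate 3. Galr1, a galanin receptor, had 4.72, 7.26 and 3.48 CPM at 3 h and 4 reads in all over the controls. Bcl6b, a transcriptional repressor, was carried by replicate 3, at 2.46, 4.51 and 32.2 CPM at 3 h, against 0.514, 0.5 and 0.88 CPM in controls (4.36 ± 1.23), and its call was lost without 3 h replicate 3 or any control (2.45 to 4.87). On the lower side Snai2, a transcription factor of cell migration, had 0.197, 0.66 and 0.733 CPM at 3 h, against 4.28, 6.86 and 5.11 CPM in controls (-3.33 ± 0.82, lost without 3 h replicate 1 or 2 or control replicate 2, -3.65 to -2.92). Dok7, an adaptor of the neuromuscular junction, had 0.492, 0.11 and 0.183 CPM at 3 h, against 1.97, 2.43 and 2.29 CPM in controls (-3.02 ± 0.53, and -3.79 without 3 h replicate 1), and Pcdh20, a protocadherin, had 0.688, 0.55 and 1.19 CPM at 3 h, against 4.11, 5.64 and 3.08 CPM in controls (-2.38 ± 0.44). Among abundant genes Cebpd, a transcription factor of inflammation and differentiation, had 79.3, 87.1 and 126 CPM at 3 h, against 247, 242 and 276 CPM in controls (-1.39 ± 0.22), and the RNA helicase Ddx3x had 536, 496 and 399 CPM at 3 h, against 837, 782 and 732 CPM in controls (-0.72 ± 0.17, lost without control replicate 1 or 2, -0.80 to -0.60). In these genes of lower level no treated library overlapped a control. For genes picked here by the size of their change, higher or lower, that was a condition of the picking and not a finding.

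The genes in which replicate 3 departed most from the pair toward the controls were picked by that distance, so their values are a description. On the higher side Apold1, of endothelial cells, had 41.4, 57.2 and 3.76 CPM at 3 h, against 3.42, 2.71 and 1.67 CPM in controls, Atp6v0d2, a subunit of the vacuolar proton pump, had 54.5, 39.6 and 2.66 CPM at 3 h, against 3.00, 4.07 and 3.43 CPM in controls, and Slc4a10, a bicarbonate carrier, had 15.6, 16.4 and 0.916 CPM at 3 h, against 1.63, 1.21 and 0.528 CPM in controls. Replicate 3 was below all controls for Atp6v0d2, within them for Slc4a10 and just above them for Apold1. Fbln5, a protein of elastic fibres, had 99.7, 95.2 and 13.7 CPM at 3 h, against 18.5, 16.9 and 10.1 CPM in controls. On the lower side were genes of dividing cells and others. Cdca3, of mitotic entry, had 1.87, 2.75 and 49.01 CPM at 3 h, against 64.4, 71.7 and 45.1 CPM in controls, Pclaf, a partner of PCNA, had 0.295, 0 and 4.40 CPM at 3 h, against 9.24, 8.71 and 5.54 CPM in controls, and Syp, a synaptic vesicle protein, had 0.295, 0.33 and 7.88 CPM at 3 h, against 8.05, 11.8 and 6.42 CPM in controls. Krt15, a keratin, had 0.0983, 0.33 and 5.86 CPM at 3 h, against 5.39, 5.78 and 4.49 CPM in controls. In each of these 4 the pair was far below the controls.

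Calls among markers of other cell types stand beside 13.5% higher and 7.94% lower for all tested genes. Of microglia markers 0 of 25 were higher and 1 lower (2 and 1 without replicate 3), with mean log2 CPM of 5.85, 5.81 and 6.40 at 3 h, against 6.18, 6.17 and 6.46 in controls. Tmem119, a marker of resident microglia, had 19.1, 17.8 and 25.5 CPM at 3 h, against 36.4, 42.4 and 50.7 CPM in controls (-1.05 ± 0.26, lost without 3 h replicate 1 or 2 or control replicate 2 or 3, -1.22 to -0.92), whereas Fcer1g and Laptm5 were not called (0.40 ± 0.75 and 0.36 ± 0.82). Of oligodendrocyte lineage markers 2 of 17 were higher and 0 lower (4 and 2 without replicate 3). Olig1, a lineage factor, had 828, 861 and 327 CPM at 3 h, against 448, 443 and 426 CPM in controls and was called only without replicate 3 (0.95). The lineage markers summed to 1427, 1473 and 929 CPM at 3 h, against 1002, 1032 and 996 CPM in controls, and Olig1 held most of the sum in the pair. Over the list the median shift was -0.42 in the pair and -0.07 in replicate 3. In replicate 1, 11 of the 17 were below all controls, and as many in replicate 2. Of all tested genes 45.7% were below all controls in replicate 1 and 45.9% in replicate 2. Of fibroblast and meningeal markers 1 of 15 was higher and 0 lower (4 and 0 without replicate 3), with a median shift of 1.01 in the pair and 0.01 in replicate 3. Of endothelial and pericyte markers 1 of 11 was higher and 0 lower, with or without replicate 3. Flt1, a receptor of vascular growth factor, had 28.4, 31.9 and 48.8 CPM at 3 h, against 19.9, 18.2 and 19.5 CPM in controls (0.92 ± 0.20), and Eng, endoglin, had 35.9, 35.4 and 68.6 CPM at 3 h, against 122, 128 and 155 CPM in controls and was not called. Of ependymal and choroid markers 0 of 6 were called in either direction, with or without replicate 3.

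**Figure D4:**
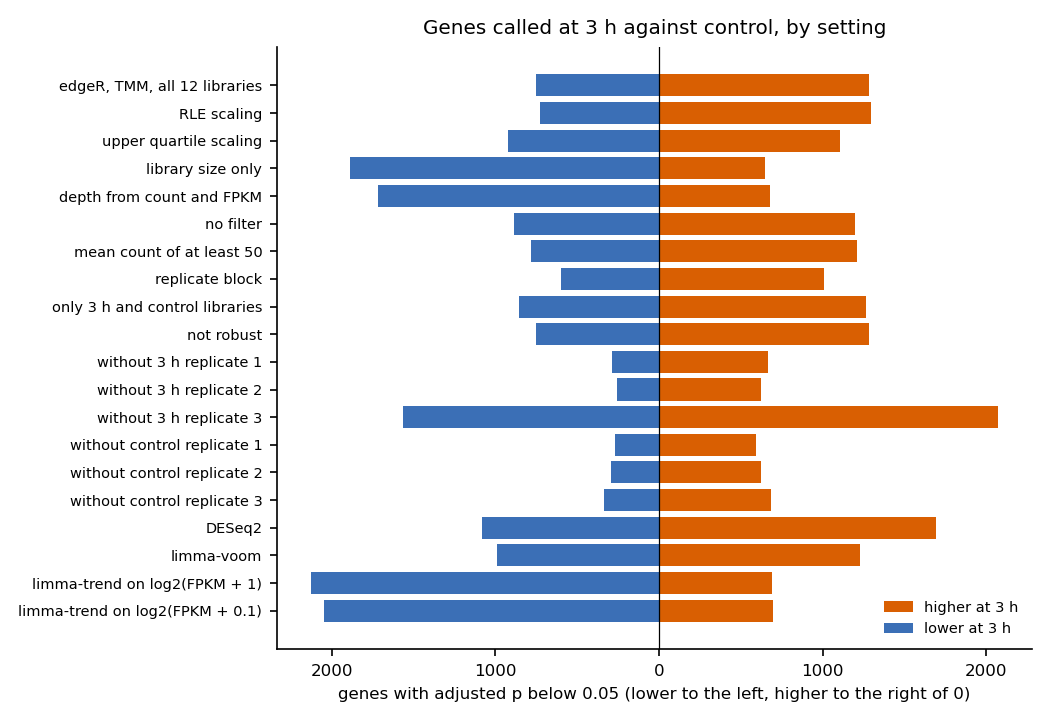
Number of genes called higher (right) and lower (left) at 3 h against control under each setting, at an adjusted p below 0.05. The upper bar is edgeR with TMM scaling and all 12 libraries (1281 higher, 754 lower). Library size and depth scaling turn the split to more lower than higher genes, and leaving out 3 h replicate 3 gives the most calls (2070 higher, 1565 lower).

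Of the 194 called genes that the naming rule picked, 108 kept their call when any 1 of the 6 libraries was left out, and 158 kept it under all 4 other scalings. The 18 picked genes whose sign changed with the scaling were all without a call.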

How the data were processed

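RNA-seq libraries of cultured rat midbrain astrocytes were compared, 3 after 3 h of PT109B and 3 untreated. The deposited table holds, per the file headers, a count and an FPKM value (fragments scaled to gene length and library size) for each gene and library. Per the submitters' processing notes StringTie 2.2.1 was used, while aligner and genome build were not given in the sources used here. Because 9.49% of the count values the authors deposited were not whole, these were treated as estimated counts and rounded. Depth was 10364603 to 12498050 counts per library.

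All 12 libraries of the series entered 1 fit in edgeR 4.0.16 (R 4.3.3) with TMM scaling, a filter on low counts that removed 230 genes, robust quasi-likelihood dispersion, 8 residual degrees of freedom and Benjamini-Hochberg adjustment. As a check of the code, the fit was also run on simulated counts in which replicates differed only by random scatter. That run does not bear on a library that departs from its group, as 3 h replicate 3 did. Prior counts were 0.125 for fold changes and 0.5 for log2 CPM. Shifts of single libraries are differences in log2 CPM from the control mean. Alternatives were other scalings, filters, DESeq2 1.42.0, limma 3.58.1 on counts and on log2(FPKM + 1) or log2(FPKM + 0.1), a replicate block and leaving out each library. Python 3.11.15 and pandas 2.3.3 made the summaries. Of the gene lines, 60 have no symbol and 58 symbols stand on more than 1 line, of which the line with the highest mean count was named.

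Members and gene lists were chosen with earlier results of these data known, and lists are described by counts and medians, with no test. Named genes are the 12 higher and 12 lower with the largest fold change, without overlap and with at least 2 CPM in the higher group; the 6 and 6 with the largest FPKM difference; up to 4 called and 2 uncalled members of each list; the 6 and 6 where replicate 3 lay farthest from replicates 1 and 2 towards the controls; and a set picked for its relevance to astrocytes and neurons. The text gives part of these. Promoters came from RefSeq (GRCr8), matched by symbol.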

Additional observations from a re-analysis of the deposited data

How the results depend on the processing

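Leaving out 1 library gave between 863 and 3635 changed genes in all, 594 and 2070 higher, 255 and 1565 lower, and 470 and 1616 changed by 2-fold or more. In each of these 4 counts the highest value came from leaving out 3 h replicate 3. Higher genes numbered 650 with library size scaling, 677 with depth from counts and FPKM, 692 with limma on log2(FPKM + 1) and 696 on log2(FPKM + 0.1). Lower genes numbered 1887, 1718, 2125 and 2045 under the same settings. The share of genes with replicate 3 beyond the controls on the side of the pair was 74.2% among those called without it, 67.9% with library size and 69.3% with depth scaling. Among genes called with all libraries it was 98.3%, 98.4% with RLE, 91.5% with library size and 93.3% with depth scaling. With a replicate block 1608 genes were called, 1007 higher and 601 lower; same-numbered libraries did not deviate together (correlations of 0.03, -0.02 and -0.04), so they share only a number. With the 6 libraries alone 2121 genes were called. DESeq2 called 2770 genes and limma-voom 2218. The cause of these differences was not tested. Low counts limit genes with few control reads, and no fold change is given for those with under 5.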
